A study of Homo sapiens with 12 samples.

Results

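Genes of DNA replication and S phase were examined in HCT116, an established human colorectal cancer cell line, under low oxygen. The set holds 47 genes chosen by name and role, out of 56537 gene names in the table. It covers the origin recognition complex, the loaders of the helicase, the MCM helicase and its partners, the polymerases, the sliding clamp and its loader, the single-strand binding protein, Okazaki fragment joining, nucleotide supply and the entry into S phase. Cells were kept at 21% O2 (0 h) or moved to 1% O2 for 1, 2 or 24 h, with 3 biological replicates each and 12 libraries in all. Hypoxia began 24 h after plating. The 12 libraries hold no normoxic sample at 24 h, so hypoxia and time in culture cannot be told apart at that point.

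In each S phase a cell copies its genome once. The origin recognition complex (ORC), CDC6 and CDT1 load rings of MCM2 to MCM7 on DNA in G1. Cyclin E with its kinase then fires the origins, CDC45 and the GINS complex join the ring to form the active helicase, and the polymerases copy the strands with PCNA as a sliding clamp. Many of these genes are transcribed by E2F factors, which RB family proteins hold in check until late G1, and cells short of oxygen are known to slow replication.

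PolyA RNA was sequenced with strand information, and the level of a gene was the sum of the FPKM (fragments per kilobase of transcript, scaled to the fragments of the library) of its annotated transcripts and their new splice forms. The depth of each library was not used here, no counting error can be given for an FPKM, and the spread of 3 replicates is the measure of precision. Levels were compared by limma on log2(FPKM + 0.5), a scale that understates the change of low genes, with Benjamini-Hochberg adjustment over all 16680 gene names that passed a filter on low values. A gene is said to rise or fall at an adjusted p under 0.05, and is called at an adjusted p under 0.01 with a log2 fold change beyond 1 in size, the thresholds of the study. All 47 genes passed the filter. The epithelial markers KRT8 (988 ± 190 FPKM, SD, n = 3, at 0 h) and EPCAM (280 ± 39.1) were abundant and did not pass the test at 24 h, nor did KRT18. KRT19 rose by 0.99 on the log2 scale (adjusted p = 1.66e-05), and CDH1, low at 0 h, was called higher (7.42 to 26.3 FPKM, log2 fold change 1.76, adjusted p = 8.48e-07). PTPRC, CD3E, COL1A2 and PECAM1, which define blood, stromal and endothelial cells, were listed at 0 at 0 h and 24 h. COL1A1 and ACTA2 were low but rose, and the 6 markers of other cells summed to between 2.99 and 4.05 FPKM at 0 h and between 11.5 and 16.3 FPKM at 24 h. The part of these markers in the results was not tested. Of 10 hypoxia response genes, used to check the labels, 10 were called higher at 24 h, among them NDRG1 (24.1 to 984 FPKM).

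After 24 h in 1% O2 the replication genes were lower as a body. The summed level of the 47 genes was 3465 ± 20.7 FPKM (SD, n = 3) before hypoxia. It was 3462 ± 128 after 1 h, 3405 ± 87.1 after 2 h and 1639 ± 122 after 24 h. Of the 47 genes 45 fell at 24 h and 31 were called lower, while 0 rose. Among all gene names tested 30.3% fell, 25% rose and 9.51% were called lower. The median log2 fold change was -1.31 over the 47 genes and -0.05 over all gene names. In 45 of the genes every 24 h library lay below every 0 h library, which held for 32.8% of all gene names. The 24 h level stood between 15.9% (CCNE2) and 95.1% (RFC1) of that at 0 h, with 31 genes under 50% and 5 under 25%. In these bulk samples, fewer cells in S phase and less RNA per cell cannot be told apart from FPKM. The study also measured the cell cycle by flow cytometry, which was not analysed here.

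**Figure D1:**
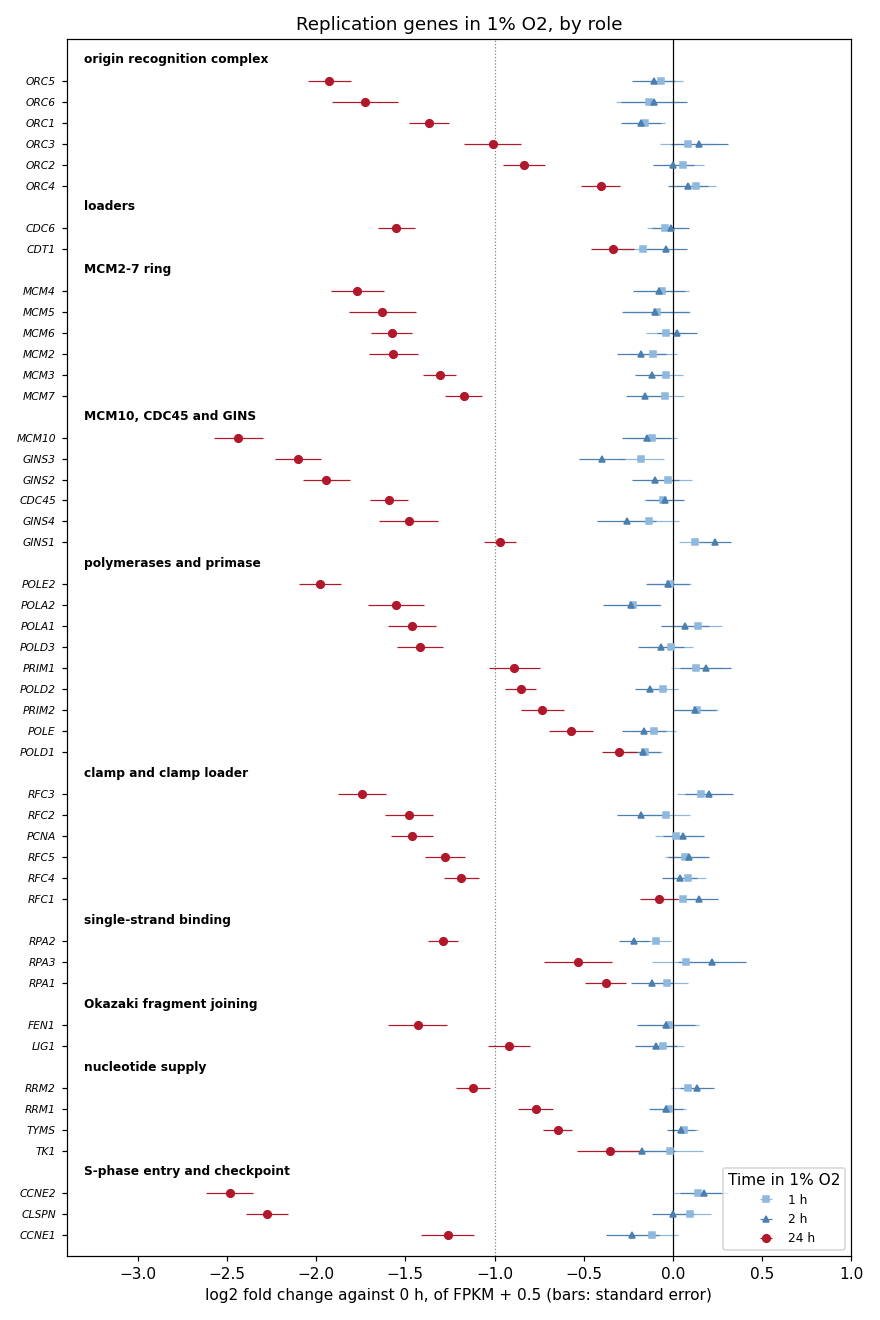
Log2 fold change of each of the 47 genes against 0 h (x axis, of FPKM + 0.5) at 1 h (squares), 2 h (triangles) and 24 h (circles), with the standard error of the limma fit as a bar and genes grouped by role; the dotted line marks -1. The 24 h circles run from -2.49 (CCNE2) to -0.08 (RFC1), whereas the 1 h symbols lie between -0.23 and 0.16 and the 2 h symbols between -0.40 and 0.24.

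At the early times nothing passed the test. By limma 0 of 47 genes rose or fell at 2 h, against 0.312% of all gene names, and 0 at 1 h, against 0.006%. By the fold rule 0 were called at either time, against 0.018% at 2 h and 0.006% at 1 h. At an unadjusted p under 0.05 there were 3 genes at 2 h (15.3% of all gene names) and 0 at 1 h (4.61%), and the fit with a replicate block also gave 0 calls at both times. The 3 were GINS3 (log2 fold change -0.40, SE 0.13, adjusted p = 0.196), RPA2 (-0.22, SE 0.08, adjusted p = 0.257) and GINS1 (0.24, SE 0.09, adjusted p = 0.243), named here after their values were seen. The comparisons with 0 h share the 0 h libraries. Against 2 h, the 24 h libraries had 33 genes called lower (7.28% of all gene names) and 42 that fell (27.4%), with a median log2 fold change of -1.22. Rescaling each library to a fixed sum (TPM) moved the median of all gene names at 2 h from -0.02 to -0.88; on that scale 35 of the 47 genes fell at 2 h, as did 54.2% of all gene names. Between 2 h and 24 h, 5 of the 47 were then called lower (0.456% of all gene names) and 11 fell (1.44%).

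**Figure D2:**
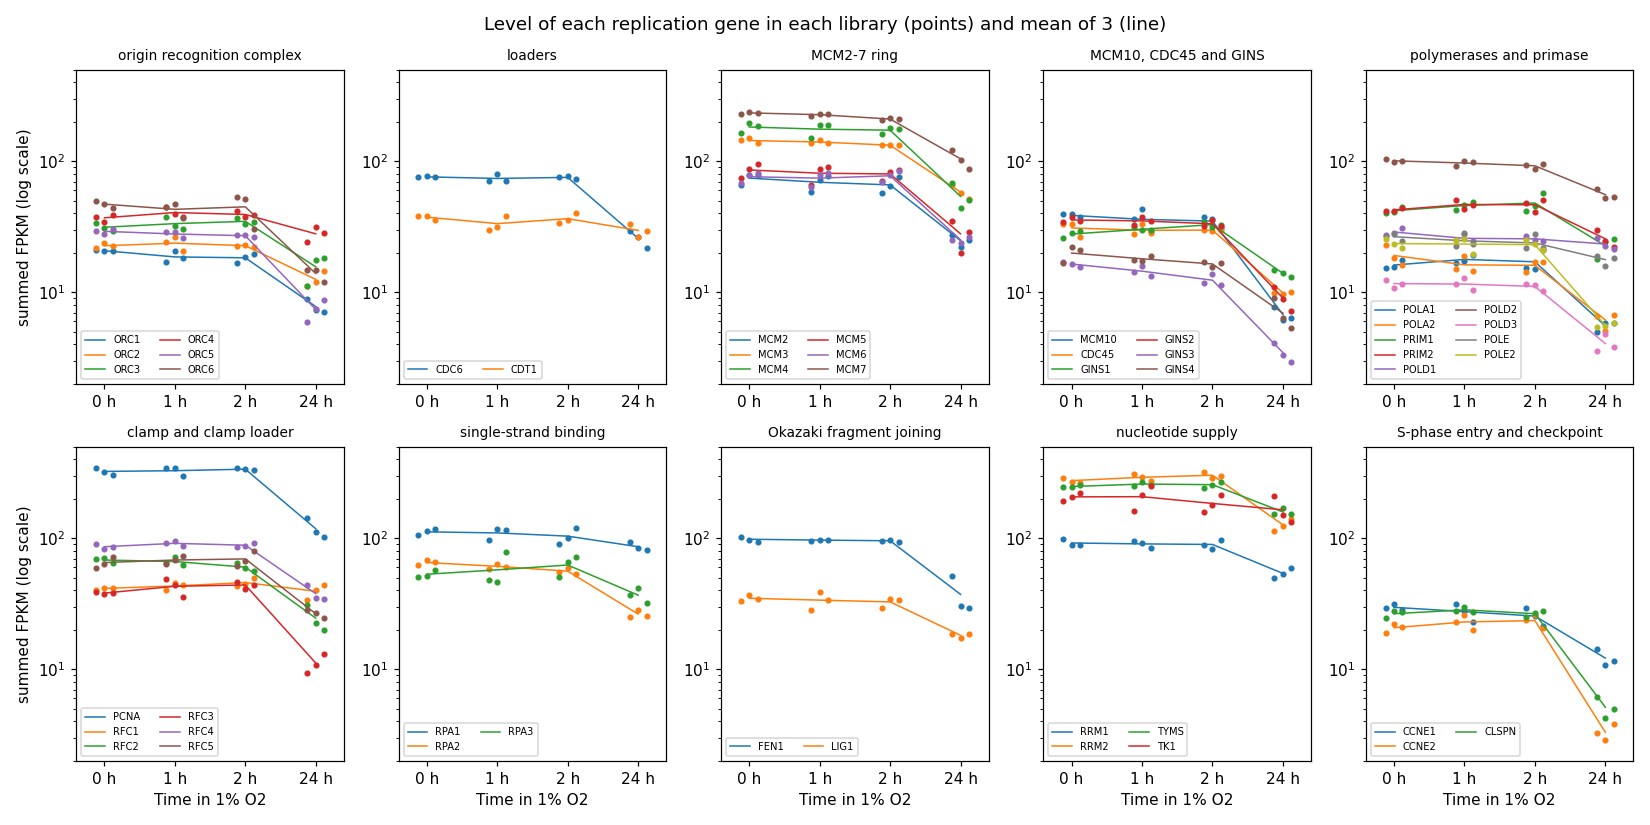
Summed FPKM (y axis, log scale) of each gene at 0, 1, 2 and 24 h in 1% O2, 1 panel per role; points are the 3 libraries of a time point and lines join their means, with time points evenly spaced. In most panels the lines are level to 2 h and lower at 24 h, with RFC1, RPA1, CDT1, POLD1 and TK1 the flattest.

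The origin recognition complex marks the sites where replication can begin, and its 6 subunits all fell, 4 of them called. ORC5, an AAA+ subunit on chromosome 7 (103766788 to 103848495, hg19), stood at 29.5, 27.8 and 30.3 FPKM at 0 h, 28.8, 28.6 and 26.2 at 1 h, 27.2, 27.6 and 26.3 at 2 h, and 5.94, 7.48 and 8.74 at 24 h. Its 24 h libraries lay far below the other 9, with a log2 fold change of -1.93 (SE 0.12, adjusted p = 3.08e-07). ORC6, the subunit with the highest mean FPKM at 0 h though below ORC3 and ORC4 at 24 h, went from 49.9, 47.2 and 44.2 at 0 h to 44.5, 47.4 and 37.1 at 1 h, 53, 51.4 and 30.4 at 2 h, and 14.8, 14.8 and 12 at 24 h (log2 fold change -1.73, SE 0.19, adjusted p = 1.15e-05). Of the 2 h libraries replicate 3 was the lowest, yet still above all 24 h libraries. ORC1, the subunit whose level varies through the cell cycle, changed by -1.37. ORC3 was called at -1.01, but was not beyond -1 without 0 h replicate 1 (-0.96) or without 24 h replicate 1 (-0.79), nor with a pseudocount of 1 (-0.99), annotated transcripts alone (-0.97) or median-of-ratios scaling (-0.95). ORC2 (-0.84) and ORC4 (-0.41) fell by less. The ratio of ORC4 to ORC5 went from 1.27 ± 0.0289 at 0 h to 3.83 ± 0.505 at 24 h (SD, n = 3). Much of the ORC4 sum was not coding. Its transcripts typed as coding had 6.21 FPKM at 0 h and 2.94 at 24 h, and those typed as noncoding 12.2 and 11.6. The ratio of noncoding to coding FPKM in ORC4 did not pass the limma test (adjusted p = 0.161), and 50.8% of its 0 h FPKM was typed.

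Of the 2 loaders CDC6 was called lower and CDT1 was not. CDC6, an ATPase that brings MCM rings to ORC, was at 75.4, 76.5 and 76.2 FPKM at 0 h, 71.3, 79.9 and 70.6 at 1 h, 76, 77.3 and 72.7 at 2 h, and 29.2, 26.3 and 21.9 at 24 h. These 24 h values did not overlap with the rest, and the log2 fold change was -1.55 (SE 0.10, adjusted p = 4.57e-07). CDT1, which carries the MCM ring to the origin, was described in full after its values were seen. It was at 38.4, 38.4 and 35.6 FPKM at 0 h, 30.1, 31.7 and 38.5 at 1 h, 33.6, 35.4 and 40.4 at 2 h, and 33.4, 26.2 and 29.4 at 24 h, a log2 fold change of -0.34 (SE 0.12, adjusted p = 0.0308). That difference did not pass in every fit: the adjusted p was 0.0833 without 0 h replicate 1, 0.0858 without 0 h replicate 2, 0.121 without 24 h replicate 2 and 0.058 without 24 h replicate 3, and 0.067 with median-of-ratios scaling of all libraries. GMNN (geminin), the inhibitor of CDT1 and not among the 47, was called lower (72 to 23.5 FPKM, log2 fold change -1.60, adjusted p = 3.58e-07). CDT1 mRNA was therefore at 0.521 ± 0.0256 of GMNN mRNA at 0 h and 1.28 ± 0.261 at 24 h, and at 0.493 ± 0.0226 and 1.16 ± 0.174 of CDC6 mRNA (SD, n = 3).

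All 6 genes of the MCM2 to MCM7 ring, the motor of the replicative helicase, were called lower. MCM4 changed the most: it stood at 165, 196 and 187 FPKM at 0 h, 150, 188 and 189 at 1 h, 163, 180 and 176 at 2 h, and 67.8, 43.7 and 50.4 at 24 h (log2 fold change -1.77, SE 0.15, adjusted p = 2.02e-06). MCM7, the most abundant, stood at 231, 238 and 233 at 0 h, 220, 230 and 230 at 1 h, 207, 213 and 209 at 2 h, and 122, 103 and 87.7 at 24 h (-1.17, SE 0.10, adjusted p = 3.12e-06). In both, the 24 h libraries were clear of all others. MCM5 (-1.63), MCM6 (-1.58), MCM2 (-1.57) and MCM3 (-1.31) lay between. The ring has 1 copy of each subunit, yet the highest FPKM exceeded the lowest between 2.95 and 3.49 times in the 0 h libraries and between 3.50 and 5.12 times in the 24 h libraries. MCM7 was first in all 12 libraries, and the order of the 6 was the same in the 9 libraries up to 2 h. These sums include noncoding and untyped transcripts, so the spread and the order are not those of coding mRNA. In transcripts typed as coding, MCM3 (143 FPKM at 0 h and 58 at 24 h, means of 3) stood above MCM7 (110 and 47.6). MCM4 had 21.1 and 5.16 FPKM in such transcripts, and 42.4% of its 0 h FPKM was typed.

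The factors that turn the loaded ring into a moving helicase held some of the largest changes. MCM10, needed for origin firing, is on chromosome 10 (13203558 to 13253110, hg19). Its level was 39.3, 39.4 and 37.3 FPKM at 0 h, 36.1, 43 and 29.1 at 1 h, 37.4, 36.3 and 31.1 at 2 h, and 7.69, 6.17 and 6.41 at 24 h. The 24 h libraries lay far below all others, and the log2 fold change was -2.44 (SE 0.14, adjusted p = 1.84e-07). Of the 4 GINS subunits, GINS3 (-2.10), GINS2 (-1.94) and GINS4 (-1.48) were called. GINS1 fell by 0.97 on the log2 scale, just short of the fold threshold, and was beyond -1 when 0 h replicate 1 or 24 h replicate 1 was left out. CDC45 changed by -1.59, with 24 h values of 9.89, 9.75 and 10 FPKM.

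All 9 polymerase and primase genes fell, and 4 were called. POLE2, the second subunit of the leading-strand polymerase epsilon, stood at 25.6, 23.4 and 21.7 FPKM at 0 h, 25, 25.6 and 19.5 at 1 h, 24.9, 23.5 and 20.9 at 2 h, and 5.41, 5.57 and 5.8 at 24 h (log2 fold change -1.98, SE 0.12, adjusted p = 2.74e-07). POLD2, a subunit of the lagging-strand polymerase delta and the highest of the 9, stood at 104, 98 and 101 at 0 h, 91.7, 100 and 98.7 at 1 h, 94.3, 87.8 and 94.9 at 2 h, and 61.6, 52.3 and 53.1 at 24 h (-0.85, SE 0.09, adjusted p = 7.22e-06). Both sets of 24 h values were below all earlier ones. The genes that begin each strand, POLA1 (-1.46) and POLA2 (-1.55) of polymerase alpha, were called, as was the delta subunit POLD3 (-1.42), whereas the primase genes PRIM1 (-0.89) and PRIM2 (-0.73) fell by less. The catalytic subunits POLE (-0.57) and POLD1 (-0.30) moved least. POLD1 passed the test with an adjusted p of 0.0198, but not without 0 h replicate 3 (0.0792), 24 h replicate 2 (0.0561) or 24 h replicate 3 (0.0619), nor in a fit to the 6 libraries of 0 h and 24 h alone (0.052). The ratio of POLE to POLE2 went from 1.13 ± 0.0694 at 0 h to 3.18 ± 0.326 at 24 h (SD, n = 3).

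PCNA, the sliding clamp and the gene with the highest level of the 47 at 0 h, was at 346, 319 and 306 FPKM at 0 h, 343, 342 and 298 at 1 h, 344, 335 and 331 at 2 h, and 142, 111 and 102 at 24 h. The 24 h libraries were well apart, with a log2 fold change of -1.46 (SE 0.12, adjusted p = 1.47e-06). The clamp is opened by replication factor C. RFC3 changed most in this group, from 38.6, 37.9 and 38 at 0 h through 49.3, 44.3 and 35.5 at 1 h and 46.8, 41.3 and 43.9 at 2 h to 9.45, 10.9 and 13.2 at 24 h (-1.74, SE 0.13, adjusted p = 1.15e-06). RFC2 (-1.48), RFC5 (-1.28) and RFC4 (-1.19) were called as well. RFC1, the large subunit, was the gene of the 47 with the smallest difference and was described in full for that reason: 40.5, 41.8 and 42 FPKM at 0 h, 39.9, 45.8 and 44 at 1 h, 43.2, 45.2 and 49.4 at 2 h, and 33.7, 40.6 and 44 at 24 h. Its groups overlapped, and its log2 difference of -0.08 (SE 0.11, adjusted p = 0.55) was 0.028 without 24 h replicate 1. RFC1 mRNA was at 0.643 ± 0.0142 of the mean of RFC2 to RFC5 at 0 h and at 1.60 ± 0.369 at 24 h (SD, n = 3).

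Replication protein A, a trimer, covers single-stranded DNA. RPA2 stood at 62.5, 67.9 and 65.4 FPKM at 0 h, 58.5, 64 and 60.6 at 1 h, 55.4, 59.4 and 53.4 at 2 h, and 25.2, 28.4 and 25.5 at 24 h, with no overlap and a log2 fold change of -1.29 (SE 0.08, adjusted p = 4.18e-07). RPA1, the large subunit with the highest level, stood at 106, 113 and 117 at 0 h, 96.2, 117 and 116 at 1 h, 90.7, 101 and 119 at 2 h, and 93.8, 84 and 80.8 at 24 h (-0.38, SE 0.12, adjusted p = 0.0154). Its 24 h libraries lay below those of 0 h, but overlapped with those of 2 h, and its adjusted p was 0.0516 without 0 h replicate 3. RPA3 fell by 0.53 on the log2 scale (adjusted p = 0.0315). This did not hold without 24 h replicate 1 (0.0606), 24 h replicate 3 (0.104) or any 0 h replicate (0.0538, 0.0615 and 0.089), nor with no filter on low values (0.0731). With median-of-ratios scaling its adjusted p lay at the threshold (0.05 after rounding). The ratio of RPA1 to RPA2 went from 1.72 ± 0.064 at 0 h to 3.28 ± 0.392 at 24 h (SD, n = 3).

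Okazaki fragments are trimmed by FEN1 and sealed by LIG1. FEN1 was at 103, 97.6 and 94.2 FPKM at 0 h, 95.3, 97.5 and 97.6 at 1 h, 96.1, 96.6 and 94.3 at 2 h, and 51.8, 30.6 and 29.6 at 24 h. Of the 24 h libraries replicate 1 was the highest, yet below all others (log2 fold change -1.43, SE 0.16, adjusted p = 1.84e-05). The DNA ligase gene LIG1 fell by 0.92, from 34.8 ± 1.68 to 18.2 ± 0.682 FPKM (SD, n = 3).

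Of the genes that supply deoxynucleotides, RRM2, the cell cycle regulated subunit of ribonucleotide reductase, was the most abundant at 0 h and had the largest change; at 24 h TK1 and TYMS stood above it. It stood at 291, 269 and 266 FPKM at 0 h, 307, 293 and 276 at 1 h, 322, 289 and 297 at 2 h, and 114, 124 and 141 at 24 h (log2 fold change -1.12, SE 0.09, adjusted p = 2.12e-06), with no overlap. RRM1, the large subunit, fell by 0.77, so the ratio of RRM1 to RRM2 went from 0.334 ± 0.00449 at 0 h to 0.426 ± 0.00585 at 24 h (SD, n = 3). TYMS, which makes thymidylate, fell by 0.65. TK1, the thymidine salvage kinase, did not pass the test (-0.35, SE 0.19, adjusted p = 0.129) and was described in full for that reason. Its 24 h libraries spread from 210 in replicate 1 through 151 to 134 FPKM, against 193, 207 and 221 at 0 h, 160, 214 and 248 at 1 h, and 157, 181 and 215 at 2 h. Without 24 h replicate 1 the difference was -0.54 (adjusted p = 0.0235). TK1 also passed in 2 of 12 other alternatives, the TPM scalings (lowest adjusted p = 0.0287).

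The genes for S-phase entry and its checkpoint were all called. CCNE2, 1 of the 2 E cyclins, had the largest change of the 47 on the scale used here: 19, 22.1 and 21.2 FPKM at 0 h, 23.1, 25.9 and 19.9 at 1 h, 23.9, 25.9 and 20.8 at 2 h, and 3.25, 2.86 and 3.81 at 24 h (log2 fold change -2.49, SE 0.13, adjusted p = 1.23e-07). MCM10 came first in its place with a pseudocount of 1 (-2.36 against -2.34) and with TPM (-3.09 against -2.98). MCM10 was also first without 24 h replicate 1 (-2.53), and CLSPN with annotated transcripts alone (-2.60 against -2.49 for CCNE2). CCNE1 was at 29.3, 31.3 and 28.6 at 0 h, 31.6, 28.1 and 23 at 1 h, 29.5, 25.5 and 21.4 at 2 h, and 14.3, 10.8 and 11.5 at 24 h (-1.26, SE 0.15, adjusted p = 2.25e-05). With annotated transcripts alone CCNE1 changed by -0.91 (adjusted p = 0.00399), short of the fold threshold. In both cyclins the 24 h libraries were below all others. CCNE1 was at 1.44 ± 0.0977 of CCNE2 at 0 h and at 3.72 ± 0.691 at 24 h (SD, n = 3). CLSPN (claspin), an adaptor of the CHK1 checkpoint at stalled forks, changed by -2.27, from 26.6 to 5.14 FPKM.

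**Figure D3:**
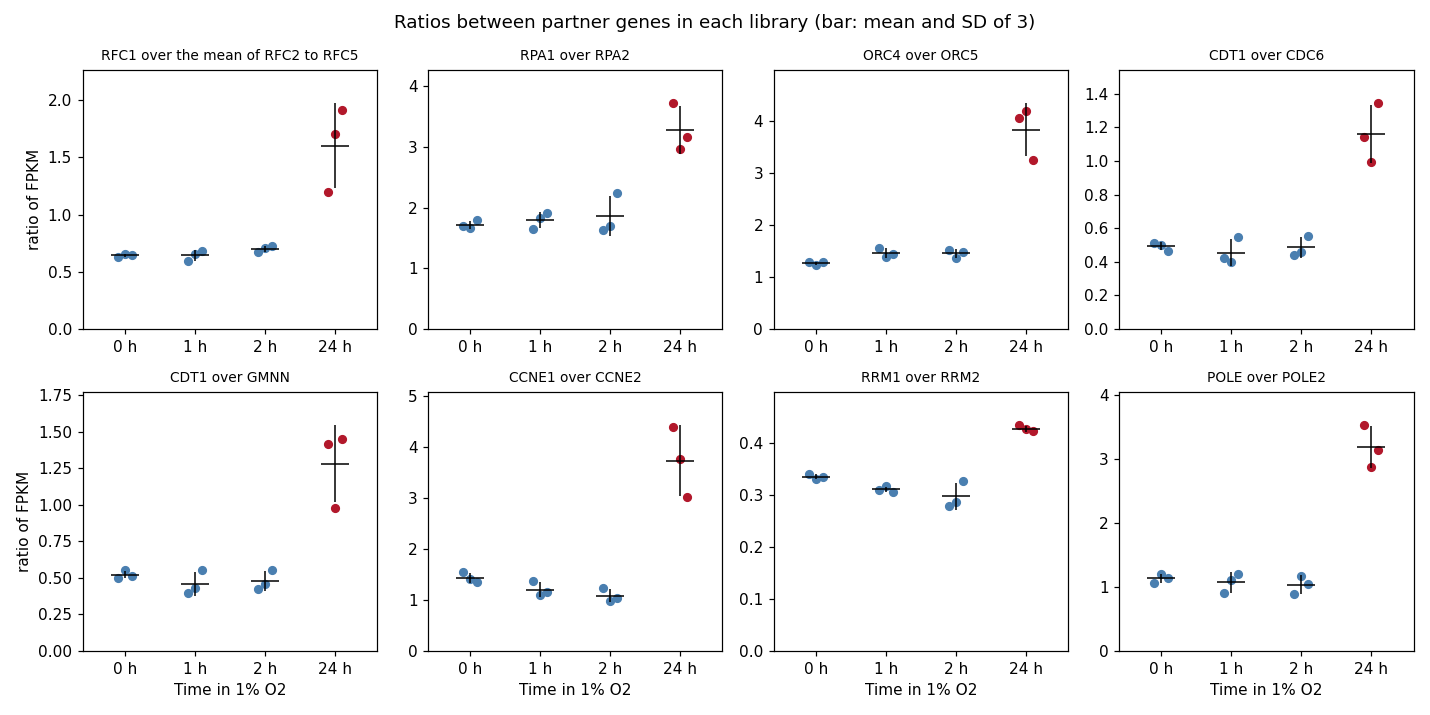
Ratio of FPKM (y axis, from 0) between partner genes in each of the 12 libraries by time in 1% O2; points are libraries, and the black marks are the mean and SD of 3. In all 8 ratios the 24 h points lie above those of 0 h.

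The 8 ratios between partner genes given above were chosen after their values were seen. In each, every 24 h library was above every 0 h library. A two-sided exact permutation test gave p = 0.1 for all 8, which is the smallest value that 3 libraries against 3 allow, and 0.1 after Benjamini-Hochberg adjustment over the 8.

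Because E2F factors drive many replication genes, the promoters of the 3 genes with the largest and the 3 with the smallest difference at 24 h among those with a RefSeq sequence were searched for their site. A window of 250 bases before and 50 after the start of transcription (GRCh38.p14) was matched by symbol for 40 of the 47 genes. The E2F site was taken as TTTCCCGC, TTTCGCGC, TTTGCCGC or TTTGGCGC on either strand. From 100 bases before the start to 10 after it, with E2F letters in capitals, MCM10 (chr10:13161458-13161567, plus strand), CLSPN (chr1:35769969-35770078, minus) and GINS3 (chr16:58392371-58392480, plus) are shown for the large changes, and CDT1 (chr16:88803689-88803798, plus), POLD1 (chr19:50384223-50384332, plus, at the upstream start) and RFC1 (chr4:39366353-39366462, minus) for the small ones.
MCM10: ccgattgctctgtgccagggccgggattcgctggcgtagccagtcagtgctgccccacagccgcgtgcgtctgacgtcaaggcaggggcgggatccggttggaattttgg
CLSPN: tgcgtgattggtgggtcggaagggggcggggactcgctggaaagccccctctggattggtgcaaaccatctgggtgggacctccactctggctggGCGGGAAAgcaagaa
GINS3: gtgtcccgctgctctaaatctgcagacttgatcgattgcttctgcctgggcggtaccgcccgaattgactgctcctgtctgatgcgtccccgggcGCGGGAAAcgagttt
CDT1: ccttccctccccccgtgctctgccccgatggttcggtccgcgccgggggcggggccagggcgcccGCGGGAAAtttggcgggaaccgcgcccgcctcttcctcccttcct
POLD1: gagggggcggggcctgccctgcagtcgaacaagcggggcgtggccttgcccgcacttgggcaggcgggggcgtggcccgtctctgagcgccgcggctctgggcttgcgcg
RFC1: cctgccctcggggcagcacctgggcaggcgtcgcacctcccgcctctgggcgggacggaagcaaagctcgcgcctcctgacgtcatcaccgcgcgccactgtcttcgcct

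The letters were found in both groups: in CLSPN and GINS3 the match begins 5 bases before the start, in CDT1 35 bases before it, and MCM10, POLD1 and RFC1 have none in the whole window. Over the 40 genes, 19 (47.5%) had a match, against 6.75% of the 9443 tested gene names with a window and 3.31% of all 35116 windows. The median log2 fold change was -1.46 for the 19 and -1.12 for the other 21, which is a description without a test. The cell cycle homology region (TTTGAA or TTCGAA), a mark of G2/M genes, was in 2 of the 40 (16.4% of all windows, 15.1% of tested gene names). The core of the hypoxia response element (ACGTG or GCGTG), was in 32 of the 40 (48.4% of all windows, 71.1% of tested gene names).

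Lists of related genes were used to place these values. Of 49 other replication genes, 25 were called lower, 43 fell and 2 rose (9.51%, 30.3% and 25% of all gene names). Their median log2 fold change was -1.02. TIPIN, a fork protection factor, changed by -2.29 (SE 0.15, adjusted p = 3.58e-07) and CDC25A, the phosphatase that activates S-phase kinases, by -2.25 (SE 0.17, adjusted p = 9.93e-07). The exceptions were POLD4, the small subunit of polymerase delta, which was called higher (7.79 to 32.3 FPKM, log2 fold change 2.00, SE 0.29, adjusted p = 9.5e-05), and RRM2B, the p53-induced subunit of ribonucleotide reductase, which rose by 0.60 (SE 0.15, adjusted p = 0.00519). POLD4 therefore went opposite to POLD1, POLD2 and POLD3, and RRM2B opposite to RRM2. Among all gene names 8.76% were called higher.

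Of 13 E2F, DP and RB family genes, the regulators of many replication genes, 4 were called lower and 2 higher (9.51% and 8.76% of all gene names), and 8 fell and 2 rose (30.3% and 25%). RBL1 (p107) changed by -1.43 (SE 0.14, adjusted p = 5.49e-06) and E2F2, an activating E2F, by -1.18 (SE 0.19, adjusted p = 0.000243). RBL2 (p130), the RB relative of resting cells, rose from 6.84 to 15.9 FPKM (1.13, SE 0.20, adjusted p = 0.000481), and TFDP2, an E2F partner, from 12.6 to 26.3 FPKM (1.04, SE 0.18, adjusted p = 0.000326).

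Of 30 genes of G2/M and mitosis, 1 was called lower, 14 fell, 1 rose and 15 did not pass the test, with a median log2 fold change of -0.26 against -1.31 for the replication genes. The 1 called was CCNB1, the mitotic cyclin (-1.05, SE 0.16, adjusted p = 0.000149). The count called was 0 without 24 h replicate 3 or with median-of-ratios scaling. It was 2 without 24 h replicate 1, with annotated transcripts alone, or when TPM left out those shorter than 300 bases. With TPM and no length limit the count was 9, and 23.3% of all gene names were called lower. The medians on that scale were -1.11 for the list and -0.67 for all gene names. CDC20, the activator of the anaphase-promoting complex, fell by 0.92, CDC25B rose by 0.50 (adjusted p = 0.0461), and CDC25C was at 0.36 (adjusted p = 0.0691). Of the list 46.7% fell, compared with 30.3% of all gene names and 95.7% of the 47 replication genes.

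**Figure D4:**
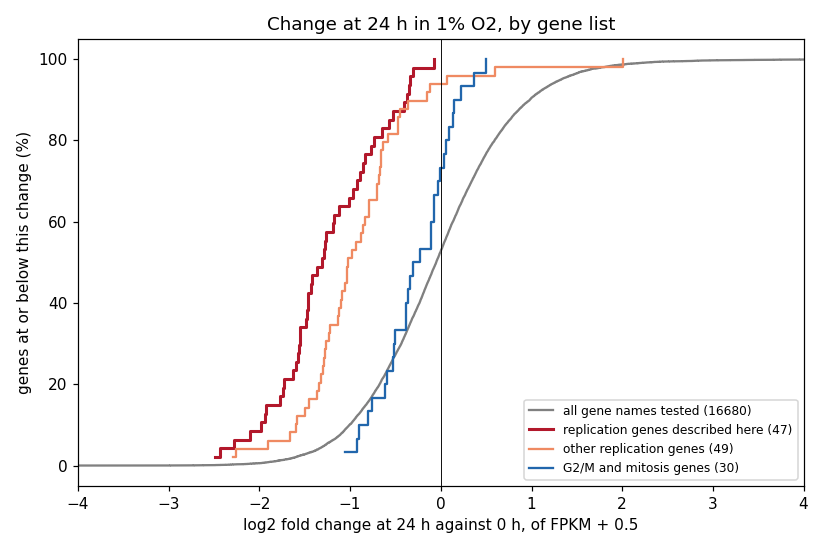
Cumulative share of genes (y axis, percent) at or below each log2 fold change at 24 h against 0 h (x axis, of FPKM + 0.5) for all 16680 gene names tested, the 47 replication genes, 49 other replication genes and 30 G2/M and mitosis genes. The 2 replication curves lie to the left, with medians of -1.31 and -1.02, and the G2/M curve has its median at -0.26.

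The study examined how hypoxia affects alternative splicing, coding and noncoding forms included. For 30 of the 47 genes both kinds of transcript passed the filter, and the ratio of noncoding to coding FPKM was compared over 5989 gene names. At 24 h 1 gene, ORC5, had a higher ratio by limma (8.77% of all gene names) and 0 had a lower one (4.21%). At an unadjusted p under 0.05, 9 were higher (18.3% of all gene names) and 0 lower (9.77%). The difference was above 0 in 25 of the 30, with a median of 0.46 on the log2 scale against 0.11 over all gene names. Because 0.5 was added to both parts, this ratio can rise in a falling gene without a higher noncoding share. In MCM3 the share was 0.316% at 0 h and 0.128% at 24 h, with a difference of 0.56. In POLD3 it was 4.98% and 4.02%, with 0.76. Such genes were not counted, so the count and the median cannot be read as a shift to noncoding forms. The noncoding share of ORC5 was 0.55%, 1.24% and 1.14% at 0 h and 3.82%, 4.37% and 1.37% at 24 h. Its noncoding FPKM was 0.282 at 0 h and 0.224 at 24 h while its coding FPKM went from 28.6 to 7.14, so the coding level differed the more. With a pseudocount of 0.1 the ratio was called in 0 genes and with 1 in 6, and without 24 h replicate 1 in 3, 24 h replicate 3 in 2 or 1 h replicate 3 in 2. In GINS4 and RRM2, which missed the threshold (adjusted p = 0.0917 for both), the share was 29.7% ± 3.71 and 16.3% ± 3.83 at 0 h and 44.5% ± 3.11 and 26.4% ± 3.5 at 24 h (SD, n = 3). Their noncoding FPKM was 5.80 at 0 h and 2.72 at 24 h in GINS4, and 44.9 and 32.9 in RRM2. Against 2 h, 3 of the 30 genes had a higher ratio at 24 h (6.66% of all gene names) and 0 a lower one (2.39%). They were GINS4 (log2 difference 1.41, SE 0.32, adjusted p = 0.0219), RRM2 (1.25, SE 0.32, adjusted p = 0.0358) and RFC5 (1.32, SE 0.37, adjusted p = 0.0496). The share counts typed transcripts alone, which made up 50.8% of ORC4, 42.4% of MCM4 and 1.19% of PRIM2 FPKM at 0 h.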

How the data were processed

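The authors aligned reads to hg19 with Mapsplice after base calling with CASAVA 1.8.2 (per the labels), assembled transcripts with Cufflinks, joined these to Ensembl models, and deposited FPKM per transcript and library; no scaling between libraries is stated. A second deposited file gives class codes, gene names and transcript length in bases. FPKM was summed per gene name over transcripts of class = (annotated) or j (new splice form), and gene names above 0.5 FPKM in at least 3 libraries were tested.

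The tests used limma 3.58.1 (lmFit, eBayes with trend) in R 4.3.3 on log2(FPKM + 0.5), with all 12 libraries in the fit, checked on simulated data. Exact permutation tests used Python 3.11.15, numpy 2.4.6, pandas 2.3.3 and scipy 1.17.1, and figures matplotlib 3.10.9. Every p is two-sided. The study calls its replicates biological; the p-values measure the spread between them. The members and lists were chosen with earlier results of these data known. Values in every library are given for the gene with the largest change and that with the highest 0 h level in each of 10 roles, for any gene changed opposite to its role (0 genes), and for the exceptions named as such. In related lists, 2 genes at each end of the change are named. Coding or noncoding type came from GENCODE lifted to GRCh37. Promoters are RefSeq (GRCh38.p14); 40 of 47 symbols matched. RFC2 has transcripts at 2 loci, and CDC6, PRIM1, POLD3, FEN1, RRM2 and CLSPN share a Cufflinks locus with another gene, so fragments may be split between them. Alternatives varied the pseudocount (0.1, 1), filters, transcript classes, scaling, the libraries in the fit and a replicate block.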

Additional observations from a re-analysis of the deposited data

Results flagged for a closer look

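Between 2 h and 24 h in 1% O2 the difference was tested directly. At 24 h 33 of the 47 genes were called lower than at 2 h (7.28% of all gene names) and 42 fell (27.4%). Between 0 h and 2 h 0 had differed by either measure, against 0.018% and 0.312% of all gene names. This contrast depended on the scale. With TPM many of the 47 fell at 2 h already, and far fewer were called or fell at 24 h against 2 h, by the counts given with the early times. Groups of 3 libraries are too small for the test of single outlying libraries, so none was run.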

How the results depend on the processing

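Without any 1 library, 41 genes still fell at 24 h against 0 h and 30 were still called; across the 12 other alternatives these were 42 and 29. Leaving out 1 library gave 31 calls each time and 42 to 45 genes that fell, a median of -1.38 to -1.27, and 31 to 33 calls against 2 h; RFC1 ran from -0.16 to 0.028. Scaling to TPM moved the median of all gene names at 24 h from -0.05 to -0.67 and at 2 h from -0.02 to -0.88, and the median of the 47 genes at 24 h to -2.09, or -1.42 relative to all; over all gene names 3893 were called lower and 215 higher, in place of 1586 and 1462. Under it 35 genes fell at 2 h (54.2% of all gene names), and 5 were called (0.456%) and 11 fell (1.44%) at 24 h against 2 h. TPM over transcripts of at least 300 bases shifted all gene names to -0.14 with no such changes. The noncoding count of 1 was 0 with a pseudocount of 0.1, 6 with 1, 2 with class = alone, and 1 to 3 without 1 library (2 without 1 h replicate 3, 3 without 24 h replicate 1, 2 without 24 h replicate 3); the cause was not tested. A replicate block left 31 calls at 24 h, 0 at 2 h and 0 at 1 h and the noncoding count at 1, and gave 43 in place of 42 genes that fell against 2 h. Same-numbered libraries deviated together between 0 h and 2 h (r of 0.129 to 0.362 across genes, 3 of 3 pairs over 0.1), but not between 0 h and 24 h (-0.000785 to 0.242, 1 of 3). Counting error cannot be read from FPKM.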

Other observations

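The transcript with the highest FPKM was the same at 0 h and 24 h in 40 of the 47 genes. The 7 others were ORC2, ORC3, MCM10, POLE2, RRM2, CCNE1 and CLSPN. In POLE2 it went from a coding transcript, with 55.8% of the gene's FPKM at 0 h, to one typed as a target of nonsense-mediated decay at 24 h. This rests on the mean of 3 libraries: its noncoding share was 23.7%, 23.6% and 14.6% at 0 h and 56.5%, 43.4% and 18.4% at 24 h, so the groups overlapped, and the ratio did not pass the limma test (adjusted p = 0.0988). In ORC2, RRM2 and CLSPN it went from an annotated form to a new splice form, and the share of new splice forms was 33.1%, 37.8% and 39.2% at 0 h and 54.6%, 42.7% and 56.7% at 24 h. In CCNE1 it went the other way, from a new to an annotated form, with shares of new forms of 46.3% and 33.1%. These shares are means over 3 libraries and were not tested. A transcript on the strand opposite GINS3, which entered no sum, was at 1.74 ± 0.668 FPKM at 0 h and 2.00 ± 0.66 at 24 h (SD, n = 3), when GINS3 itself was called lower.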
